A study of Mus musculus with 4 samples.

Results

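The 92 mouse genes described here are the nuclear genes whose symbols name a subunit, an isoform or an assembly factor of the oxidative phosphorylation machinery. They were chosen by symbol alone, as those that begin with Nduf, with Uqcr, with Atp5, with Sdh followed by a, b, c or d, or with Cox4 to Cox8 followed by a letter, out of the 27998 genes in the deposited count matrices. Of the 92, 36 code for subunits of complex I, of which 7 form its catalytic core and 29 are accessory, and 7 for factors that help to assemble it. A further 4 code for complex II, 8 for complex III and 15 for complex V. Complex IV is represented by 11 widely expressed subunits and 8 isoforms known from particular tissues. The last 3 genes, Cox7a2l, Atp5s and Atp5sl, carry names of the family without being fixed subunits.

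Oxidative phosphorylation makes ATP in the inner mitochondrial membrane. Complexes I and II feed electrons from NADH and succinate into the chain, complex III passes them to cytochrome c, and complex IV hands them to oxygen. The proton gradient built up on the way drives complex V, the ATP synthase. Most subunits are encoded in the nucleus and a small set of core subunits of complexes I, III, IV and V in the mitochondrial genome, so that the complexes are put together from both sources. In blood formation, quiescent stem cells are known for low use of this pathway, and progenitors that divide and differentiate for a higher one.

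The cells were lymphoid-primed multipotent progenitors from the bone marrow of C57BL/6 mice, profiled with droplet-based single-cell RNA sequencing that counts unique molecular identifiers (UMIs). RBPJ binds DNA and carries the signal of activated Notch receptors to target genes, and the mice differ in when they have it. The uninduced library came from mice that lack RBPJ, the 3-day and the 6-day libraries from mice in which doxycycline had switched RBPJ on for 3 and 6 days, and the control library from mice that had RBPJ throughout. Doxycycline was injected at 2 mg/ml and then given in the drinking water at 1 mg/ml. The treatment note stands on all 4 libraries, and the labels give neither whether uninduced and control mice received the drug, nor the number of mice behind a library, nor the cells in which the inducible allele is active. Each group is 1 library, so that no test between groups was possible and library and group cannot be told apart. If only the induced mice received doxycycline, the drug and RBPJ cannot be told apart either.

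The libraries held 2769 uninduced, 1292 3-day, 2129 6-day and 2693 control cells, with medians of 6774, 7641.5, 7353 and 7920 UMIs per cell. Rbpj itself stood at 11.2 CPM (counts scaled to 1000000 UMIs per library) in the uninduced library, 508 CPM at 3 days, 485 CPM at 6 days and 17.8 CPM in the control library. The labels do not say which part of Rbpj is removed, so that transcript ends need not show its loss. The defining receptor of these progenitors, Flt3, lay between 191 and 223 CPM in all 4 libraries. Among T and NK cell genes, Cd3e had no UMI in any of them and Cd3d 0.213 to 0.470 CPM. On the same list Klrd1 had 3.67 to 6.13 CPM and Nkg7 146 to 187 CPM. Between 8 and 30 cells per library drew 2% or more of their UMIs from neutrophil, erythroid, B, plasma, T or NK cell genes, and library pairs shared 2 to 17 cell barcodes. S100a8, a neutrophil gene, stood at 1653 CPM in the uninduced library, 1962 CPM at 3 days, 1382 CPM at 6 days and 495 CPM in the control library.

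Of the 92 genes, 89 had at least 1 UMI in the uninduced library and 88 in each of the other libraries. Together they gave 2.49% of all UMIs in the uninduced library, 2.57% at 3 days, 2.45% at 6 days and 2.40% in the control library, which comes to 189, 212, 201 and 209 UMIs per cell. The 13 protein-coding genes of the mitochondrial genome gave a similar share, 2.72% in the uninduced library, 2.93% at 3 days, 2.98% at 6 days and 2.70% in the control library. UMIs count captured transcript ends, so that levels below are in CPM and were not divided by transcript length. For 16 of the 92 genes, 20% or more of the 31-base words in the last 500 bases of the transcript also occur in another gene, and their levels are less certain.

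Complex V took 0.711% of UMIs in the uninduced library, 0.748% at 3 days, 0.705% at 6 days and 0.708% in the control library. Complex IV took 0.702%, 0.720%, 0.684% and 0.653% in the same order, and complex I, the complex with the most subunits, 0.672%, 0.688%, 0.663% and 0.647%. Complex III stayed between 0.242% and 0.266%, and complex II, the smallest of the complexes and the only one that also works in the citric acid cycle, between 0.0448% and 0.0493%. The 7 assembly factors of complex I together gave 0.0203% to 0.0210% of UMIs.

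**Figure D1:**
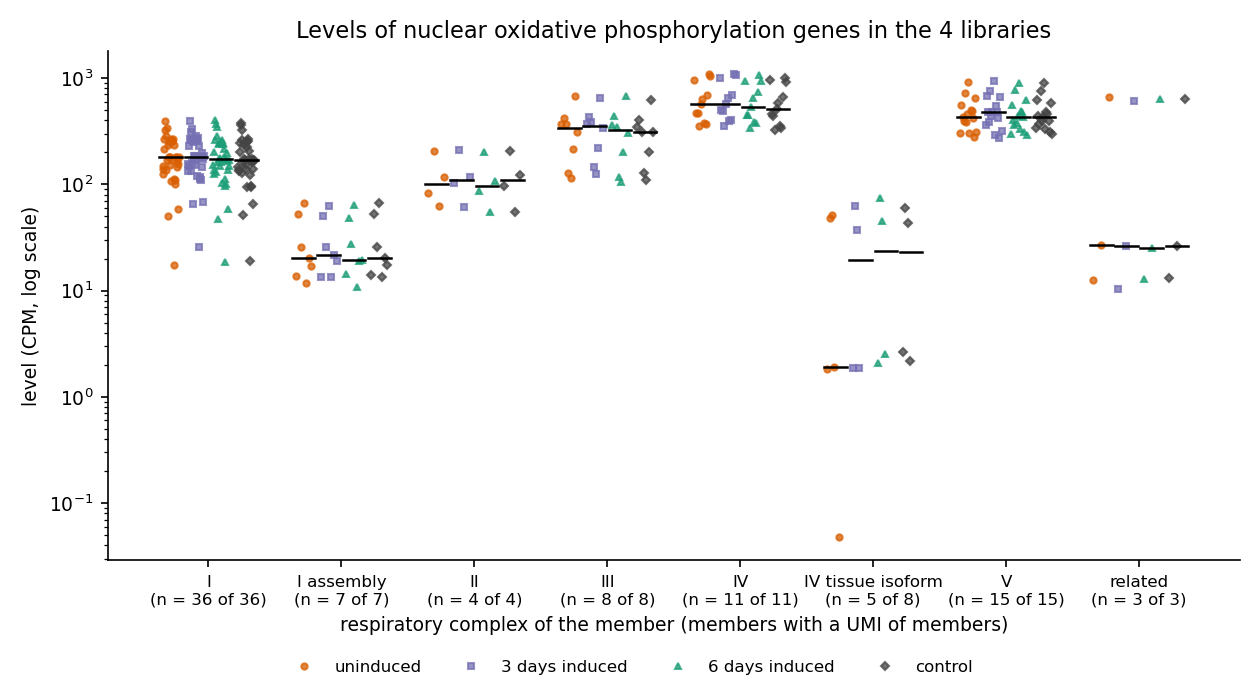
Level of each gene in each library, in CPM on a log axis, by complex or kind. Points are genes, bars mark the median of those with a UMI, and genes without a UMI are not drawn. The subunits of complexes III, IV and V sit mostly above 100 CPM, while the 7 assembly factors lie between 10.7 and 67.2 CPM.

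The most abundant subunits belonged to complex IV. Cox8a, a small subunit of cytochrome c oxidase, stood at 1091 CPM in the uninduced library, 1090.3 at 3 days, 1067 at 6 days and 998 in the control library, and Ndufa4, now regarded as a subunit of complex IV in spite of its name, at 1040.3, 1065, 945 and 921 CPM. In complex V, Atp5g2, a source of the membrane ring subunit c, had 914, 928, 894 and 894 CPM, and Atp5e, the small epsilon subunit, 723, 750.1, 776 and 751 CPM. In these 4 genes the highest library lay above the lowest by less than the 1.2-fold that counts as a difference below.

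Complex III was led by Uqcrh, the hinge protein next to cytochrome c1, with 682 CPM in the uninduced library, 652 at 3 days, 673 at 6 days and 623 in the control library, and by Uqcr11, with 421, 429, 438 and 404 CPM. Ndufa2 and Ndufa3, accessory subunits of complex I, had 391, 395, 405 and 378 CPM and 326, 308, 370 and 358 CPM. In complex II the iron-sulfur subunit Sdhb led with 204, 211, 199 and 207 CPM, followed by the membrane anchor Sdhd with 117, 118, 108 and 122 CPM. Levels thus differed far more between genes than between libraries. Ndufs1, which carries iron-sulfur clusters in the core of complex I, was the lowest fixed subunit, with 17.2 CPM in the uninduced library, 25.5 at 3 days, 18.4 at 6 days and 18.9 in the control library.

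The 8 tissue isoforms were a mixed group. Cox6a2, the isoform of subunit 6a known from heart and skeletal muscle, had 48.5 CPM in the uninduced library, 62.0 at 3 days, 74.0 at 6 days and 60.2 in the control library, beside 356, 354, 340.5 and 324 CPM of its widely expressed partner Cox6a1. Cox6b2, known from testis, had 50.9, 36.8, 44.9 and 43.4 CPM, beside 562, 573, 537 and 513 CPM of Cox6b1. Both isoforms were thus present at a level well below their partner. Cox7a1, the muscle isoform of subunit 7a, and Cox4i2, the isoform of subunit 4 known from lung and from low oxygen, stayed between 1.81 and 2.64 CPM. Cox8b had a single UMI, in the uninduced library, which makes 0.0477 CPM. Cox7b2, Cox8c and Ndufa4l2 had none in any library, which allows up to 0.143 CPM in the uninduced library, 0.282 at 3 days, 0.172 at 6 days and 0.128 in the control library (3 counts, counting error only).

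Members of the family hardly differed between the libraries. A ratio was taken on the CPM + 1 scale where a gene reached 10 CPM in at least 1 of the pair, which left 86 of the 92, and a gene counted as higher or lower from 1.2-fold. In the uninduced against the control library no member was higher and 1 was lower, where 2.92% and 10.1% of the 7235 genes compared passed the same bounds. At 3 days against uninduced, 5 members were higher and 1 was lower, with 5.97% and 8.12% of 7082 genes. At 6 days against uninduced, 1 was higher and none lower, with 3.83% and 4.47% of 7097 genes, and at 6 days against control 1 was higher and 1 lower, with 1.91% and 10.4% of 7235 genes. The shares of members higher were therefore near or below those of all genes, and the shares lower were below them in each of these 4 comparisons. All genes were not matched to the members by level, and genes with few UMIs pass a fold bound more easily through counting error.

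The median member was 0.06 higher on the log2 scale in the uninduced library than in the control library, where the median of all genes was -0.07, and 58 of 86 members lay above 0. At 3 days against uninduced the median was 0.04 (-0.01 for all genes) with 60 of 86 above 0, at 6 days against uninduced -0.03 (-0.03) with 25 of 86, and at 6 days against control 0.02 (-0.10) with 51 of 86. Scaling by the trimmed mean of M values moved the median of all genes at 6 days against control to 0.0026, a shift of over 0.1, and the members' median with it to 0.12. Of the 4 comparisons, 3 share the uninduced library and 2 the control library, so that they are not independent.

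Among the complexes, IV and III stood highest in the uninduced library relative to the control library. All 11 widely expressed complex IV subunits and all 8 complex III subunits had a ratio above 1, with median log2 ratios of 0.12 and 0.08, and their shares of UMIs were 1.07-fold and 1.08-fold those of the control library. Complex V was at 1.00-fold, complex I at 1.04-fold and complex II at 0.969-fold. Uqcrb, a subunit of complex III that binds ubiquinone, had the largest ratio, with 370 CPM in the uninduced and 309.6 CPM in the control library (1.19-fold, 95% interval 1.16 to 1.23). Cox6b2, Ndufb4, Ndufb6 and Ndufs4 followed with 1.17-fold, 1.17-fold, 1.15-fold and 1.15-fold, and none of these 5 reached 1.2-fold.

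At the other end of the uninduced against control comparison stood Cox6a2, with 48.5 CPM in the uninduced and 60.2 CPM in the control library (0.806-fold, 0.743 to 0.874), the 1 member past the bound. Its log2 ratio was under the bound on thinned cells (-0.17) and with TMM (-0.24) or DESeq2 (-0.23) scaling, and in cells low for both cell cycle lists it turned round, to 0.07. Sdha, the flavoprotein of complex II that oxidises succinate, followed with 82.5 CPM in uninduced and 97.2 CPM in control cells (0.849-fold), and then Ndufaf5, Atp5a1 and Ndufv1 with 0.872-fold, 0.893-fold and 0.898-fold. The intervals quoted here cover counting error alone and leave out the spread between mice.

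At 3 days against uninduced, the members that were higher came from 4 complexes. Ndufs1 had 25.5 CPM at 3 days and 17.2 CPM in uninduced cells (1.48-fold, 1.26 to 1.74), and Ndufa9, which stabilises the link between the arms of complex I, 64.5 and 49.8 CPM (1.3-fold, 1.18 to 1.43). Cox6a2 was 1.28-fold (1.16 to 1.41) and Sdha 1.25-fold higher (1.16 to 1.35), the last with 103 CPM at 3 days and 82.5 CPM in uninduced cells. Atp5b, the catalytic beta subunit of the ATP synthase, had 672 and 554 CPM (1.21-fold, 1.18 to 1.25). Genes on the G2 and M list summed to 5610 CPM in the uninduced library, the lowest of the 4. They gave 6057 CPM at 3 days, 5788 at 6 days and 6184 in the control library. Of the 52 compared, 13 were higher at 3 days than in uninduced cells by 1.2-fold or more (5.97% of all genes). Against the control library, 19 of 52 were lower in uninduced cells (10.1% of all genes). In cells low for both cycle lists Ndufs1, Ndufa9 and Atp5b stayed past the bound, with log2 ratios of 0.63, 0.42 and 0.27, while Cox6a2 and Sdha fell under it, each with 0.17. On thinned cells Ndufa9 fell under the bound as well, at 0.23.

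Cox6b2 was the 1 member lower at 3 days, with 36.8 CPM at 3 days and 50.9 CPM in uninduced cells (0.724-fold, 0.643 to 0.813). Atp5s, Cox7a2l, Ndufa6 and Ndufa8 followed with 0.826-fold, 0.917-fold, 0.923-fold and 0.936-fold and did not pass the bound. Of the other lists, genes of the citric acid cycle had a median log2 ratio of 0.16 at 3 days against uninduced, with 3 of 18 higher, and those of glycolysis 0.12, with 5 of 16 higher and 1 lower.

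At 6 days Cox6a2 was alone past the bound against the uninduced library, with 74.0 CPM at 6 days and 48.5 CPM in uninduced cells (1.52-fold, 1.40 to 1.66). It was also the 1 member higher against the control library, with 60.2 CPM there (1.23-fold, 1.14 to 1.33). Ndufa3 (1.13-fold), Ndufaf7 (1.13-fold), Atp5k (1.12-fold) and Atp5g3 (1.09-fold) came next against uninduced cells. Cox6b2, Sdhc, Ndufb4, Ndufa4 and Ndufc2 were lowest, between 0.883-fold and 0.914-fold. Against the control library Ndufaf5, an assembly factor of complex I, was lower with 10.7 CPM at 6 days and 13.4 CPM in control cells (0.802-fold, 0.666 to 0.964). Its log2 ratio fell short of the bound on thinned cells (-0.19), without mitochondrial and ribosomal genes in the total (-0.26), and with TMM or DESeq2 scaling (-0.20 each). Atp5a1 (0.876-fold), Sdha (0.884-fold), Sdhd (0.885-fold) and Atp5b (0.899-fold) did not pass the bound. Ndufb7, Ndufs6, Ndufaf7 and Uqcrb stood between 1.12-fold and 1.16-fold above control. Beside Cox6a2, lymphoid priming genes had a median log2 ratio of 0.28 at 6 days against uninduced, with 6 of 12 higher.

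**Figure D2:**
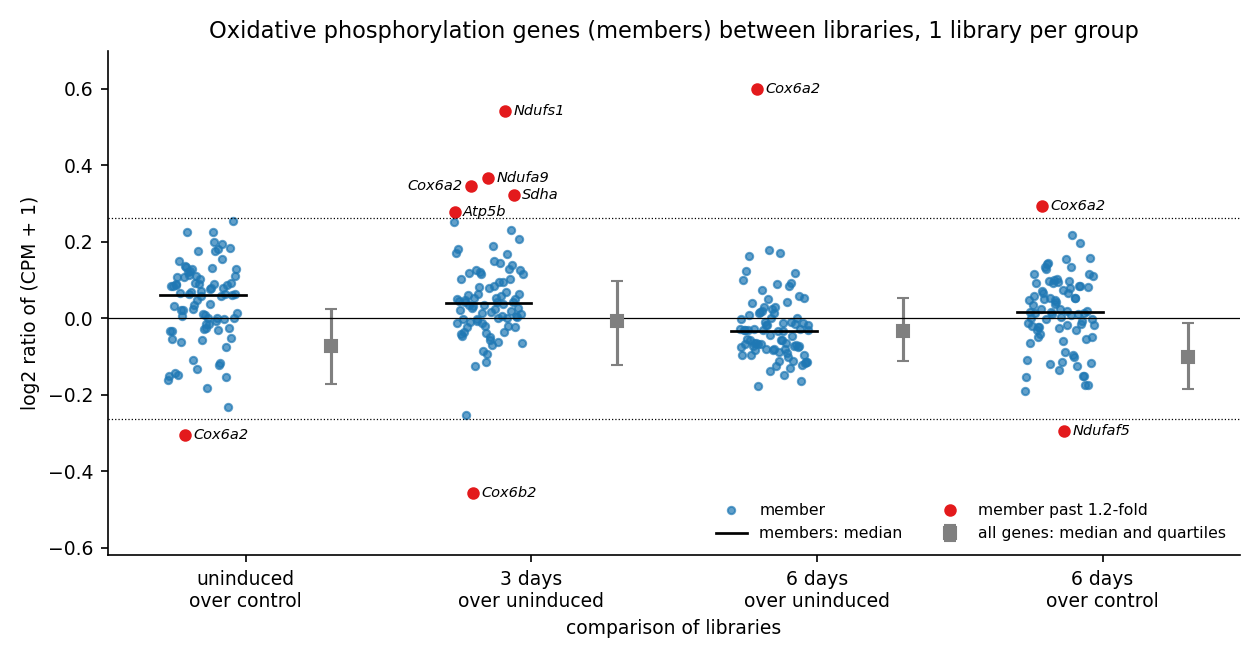
Log2 ratio of CPM + 1 of each of the 86 genes compared, in the 4 comparisons between libraries. Red points lie past 1.2-fold, dotted lines mark 1.2-fold in either direction, and the grey square and bar give the median and quartiles of all genes compared. Most members sit within the dotted lines in each comparison, and Cox6a2 is past them in all 4.

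Members' share of UMIs differed more between cell cycle classes, which take the ends of a score, than between whole libraries. Calls between classes come from a test and those between libraries from a fold bound, so that their counts cannot be compared. Cells were thinned to 4700 UMIs each and ranked by their UMIs from lists of G2 and M phase genes and of S phase genes, none of them a member. The G2/M-high class was the top 20% on the first list (45 UMIs or more, with 46 cells 1 UMI short and 40 at the bound), the S-high class the top 20% on the other (25 or more, with 163 cells 1 short and 179 at the bound) without cells that were also G2/M-high, and low-cycling cells were at or below the median of both. The classes are ranges of a score, not cell types. UMIs were summed per library and class and compared with edgeR's quasi-likelihood test, with the library as a block and Benjamini-Hochberg adjustment over all genes tested. Low-cycling cells numbered 697, 360, 660 and 810 in the uninduced, 3-day, 6-day and control libraries, S-high cells 408, 182, 305 and 462, and G2/M-high cells 432, 237, 339 and 487. Values by class below are given in that order of libraries.

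Members gave 2.25%, 2.31%, 2.20% and 2.15% of UMIs in low-cycling cells, 2.78%, 2.85%, 2.70% and 2.59% in S-high cells, and 2.57%, 2.65%, 2.58% and 2.47% in G2/M-high cells. In each of the 4 libraries the share was thus highest in S-high and lowest in low-cycling cells, and the ranges over libraries overlapped between S-high and G2/M-high cells but not with low-cycling cells. Per cell, members gave 141, 149, 143 and 141 UMIs in low-cycling cells, 276, 290, 283 and 275 in S-high cells, and 296, 316, 326 and 319 in G2/M-high cells, where the cells also held more UMIs in all, 1.60-fold to 1.70-fold those of low-cycling cells for S-high and 1.87-fold to 2.06-fold for G2/M-high cells.

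In S-high against low-cycling cells, 65 of the 88 members tested rose and 7 fell, where 27% of all 10439 genes rose and 25.2% fell. The summed share of the G2 and M list in S-high cells was 3.64-fold to 4.02-fold that in low-cycling cells. That of the S list was 3.57-fold to 4.06-fold, and 51 of 54 G2 and M genes were higher. The comparison thus sets cycling against low-cycling cells and is not particular to S phase. The median log2 fold change of the members was 0.29, against -0.02 for all genes. In complex V all 15 subunits rose, as did 10 of 11 in complex IV, 3 of 4 in complex II and 27 of 36 in complex I, where 2 fell. Complex III was split, with 5 of 8 higher and 2 lower. The summed share of complex V in S-high cells was 1.29-fold to 1.33-fold that in low-cycling cells over the 4 libraries, and that of complex III 1.13-fold to 1.18-fold. Of 15 neutrophil genes 4 were higher and 11 lower in S-high cells, and of 7 erythroid genes 5 were higher and 1 lower. Without the cells that drew 2% or more of their UMIs from other cell types, 65 members rose and 7 fell again.

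**Figure D3:**
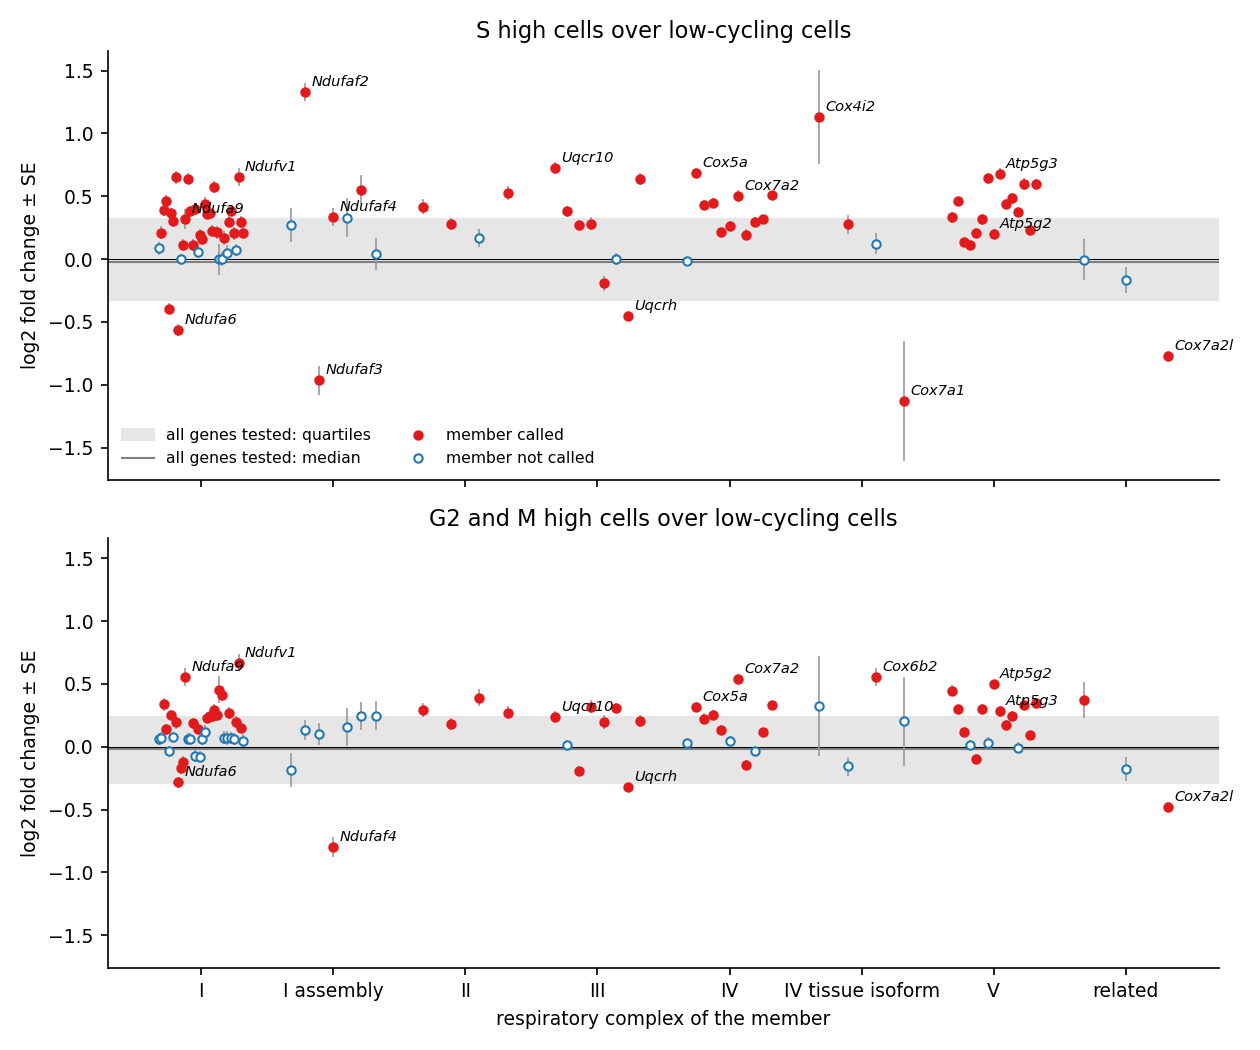
Log2 fold change with its standard error for each of the 88 genes tested, in S-high over low-cycling cells and in G2/M-high over low-cycling cells, by complex or kind. Red points passed an adjusted p of 0.05 in edgeR's quasi-likelihood test, open blue points did not, and the grey band spans the quartiles of all genes. Complexes V and IV lie mostly above 0 in the S-high panel, and the assembly factors spread from -0.96 to 1.33.

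The assembly factors of complex I moved in both directions. Ndufaf2, a chaperone that joins a late intermediate of complex I, changed most of all members, with 86.4, 84.3, 80.1 and 82.1 CPM in S-high cells against 34.6, 30.9, 29.8 and 33.6 CPM in low-cycling cells. The 4 S-high values all lay above the 4 low-cycling ones (log2 fold change 1.33, SE 0.07, adjusted p = 6.667e-18). Ndufaf6, needed for an early membrane intermediate, and Ndufaf4, which acts at an early step, rose by 0.55 and 0.33 on the log2 scale.

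Ndufaf3, the partner with which Ndufaf4 acts, went the other way. It had 15.6, 14.1, 17.2 and 14.7 CPM in S-high cells against 24.1, 33.1, 30.9 and 32.1 CPM in low-cycling cells. Every S-high value lay below every low-cycling one (log2 fold change -0.96, SE 0.11, adjusted p = 5.645e-09). Ndufaf1, Ndufaf5 and Ndufaf7 did not pass the test, at 0.27, 0.33 and 0.04.

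Among the subunits, Uqcr10 of complex III had 494, 468, 478 and 444 CPM in S-high cells against 272, 318, 289 and 247 CPM in low-cycling cells, without overlap (0.72, SE 0.05, adjusted p = 4.475e-15). Cox5a, a matrix-side subunit of complex IV, had 618, 651, 572 and 557 CPM against 362, 376, 353 and 366 CPM (0.68, SE 0.04, adjusted p = 5.64e-17). Atp5g3, a source of the ring subunit c of the ATP synthase, had 389, 399, 412 and 408 CPM against 227, 226, 270.2 and 261 CPM (0.68, adjusted p = 1.512e-15). In each of these genes the S-high value was the higher in 4 of 4 libraries. Cox4i2 also passed, at 1.13 (SE 0.37, adjusted p = 0.01119), but on 0.859 to 3.87 CPM and not with DESeq2. All p-values are from edgeR's quasi-likelihood test.

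Succinate dehydrogenase followed the same direction, with Sdhd at 0.52, Sdha at 0.42 and Sdhb at 0.28, and with Sdhc at 0.17 short of the threshold (adjusted p = 0.05636 in edgeR's quasi-likelihood test). Of the most abundant subunits Ndufa4 rose by 0.51 and Cox8a by 0.32, while Cox4i1, the central nuclear subunit of complex IV, stood at -0.01 with an adjusted p of 0.7493.

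The members that fell in S-high cells were few and clear of the low-cycling values, apart from Cox7a1 and Uqcrc2. Cox7a2l, which helps to join complexes III and IV into supercomplexes and which C57BL/6 mice carry in a shortened form, had 496, 443, 464 and 480.4 CPM in S-high cells against 799, 776, 793 and 783 CPM in low-cycling cells (-0.77, SE 0.04, adjusted p = 4.858e-19). Ndufa6, an accessory subunit at the matrix arm of complex I, had 217, 216, 220.4 and 219 CPM against 312, 309.8, 329.7 and 312 CPM (-0.56, adjusted p = 8.949e-13). Uqcrh had 557, 578, 566 and 535 CPM against 755, 747, 762 and 732 CPM (-0.45, adjusted p = 9.667e-13). Each of these 3 genes was lower in 4 of 4 libraries by edgeR's quasi-likelihood test. Ndufa13 fell by 0.40 and Uqcrc2 by 0.19 on the log2 scale, and Cox7a1 by 1.13 on levels of 0 to 2.82 CPM, with overlap between the classes and an adjusted p of 0.04554 that did not hold under 6 of the alternatives.

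In G2/M-high against low-cycling cells, 47 of the 88 members rose and 9 fell, where 23.2% of all genes rose and 23.8% fell. The median log2 fold change was 0.17 for the members and -0.01 for all genes. All 4 subunits of complex II rose, as did 11 of 15 in complex V, 7 of 11 in complex IV, 5 of 8 in complex III and 18 of 36 in complex I. Of the 7 assembly factors none rose and 1 fell. When libraries were scaled by their total alone, 67 members rose and 5 fell, with 29.7% of all genes higher and 17.9% lower. Ndufa7, Ndufa8, Atp5e and Cox7b were then no longer called lower. With the class narrowed to the top 10%, 29 members rose and 15 fell, with 19.7% of all genes higher and 21.6% lower. The median was then 0.05 for members and -0.02 for all genes. Neutrophil genes moved with this class, with 11 of 15 higher and a summed share 5.24-fold, 1.54-fold, 2.42-fold and 6.01-fold that of low-cycling cells. Of the erythroid genes 6 of 7 were higher too, while their summed share was 6.92-fold, 0.963-fold, 5.37-fold and 0.954-fold, so that the libraries differed. Without the cells that drew 2% or more of their UMIs from other cell types the members' counts were 47 and 9 again.

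Ndufv1, the subunit of complex I that takes electrons from NADH, led, with 68.9, 92.2, 76.2 and 80.9 CPM in G2/M-high cells against 43.1, 51.6, 43.9 and 49.0 CPM in low-cycling cells (0.67, SE 0.07, adjusted p = 9.422e-11). Ndufa9 had 59.0, 83.7, 61.7 and 66.4 CPM against 38.7, 52.0, 37.7 and 44.5 CPM (0.55, adjusted p = 8.947e-08). In both genes the 3-day library was the highest in either class, and the classes did not overlap. Cox7a2, the widely expressed form of subunit 7a, had 465, 469, 444 and 403 CPM against 278, 321, 300.1 and 262 CPM (0.54, adjusted p = 2.316e-12). Atp5g2 had 1145, 1135, 1151 and 1109 CPM against 770.2, 779, 739.6 and 741 CPM (0.50, adjusted p = 9.501e-15). Both pairs of ranges were far apart, and these p-values come from edgeR's quasi-likelihood test.

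The testis isoform Cox6b2 rose as well, with 68.7, 49.1, 60.6 and 58.1 CPM in G2/M-high cells against 50.2, 30.5, 36.5 and 35.1 CPM in low-cycling cells (0.56, adjusted p = 7.087e-08 in edgeR's quasi-likelihood test). It was higher in 4 of 4 libraries, while the uninduced low-cycling value overlapped the 3-day G2/M-high one. Its partner Cox6b1 rose by 0.14 on the log2 scale.

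Ndufaf4 fell most, to 35.1, 40.3, 42.9 and 44.5 CPM in G2/M-high cells, against 73.3, 69.2, 62.1 and 64.8 CPM in low-cycling cells (-0.80, SE 0.08, adjusted p = 1.246e-10). Cox7a2l had 617.5, 583, 589 and 607.5 CPM in G2/M-high cells (-0.48, adjusted p = 2.116e-13), Uqcrh 664, 618, 665 and 595.5 CPM (-0.32, adjusted p = 3.407e-09) and Ndufa6 293, 256, 294 and 258 CPM (-0.28, adjusted p = 2.292e-06). All 4 genes were lower in G2/M-high cells in 4 of 4 libraries, with no overlap with the low-cycling values given above. Uqcrb fell by 0.19 (adjusted p = 0.0002467), with overlap between the classes. Ndufaf2 and Ndufaf3 did not pass, at 0.13 (adjusted p = 0.183) and 0.10 (adjusted p = 0.3833), each in edgeR's quasi-likelihood test.

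**Figure D4:**
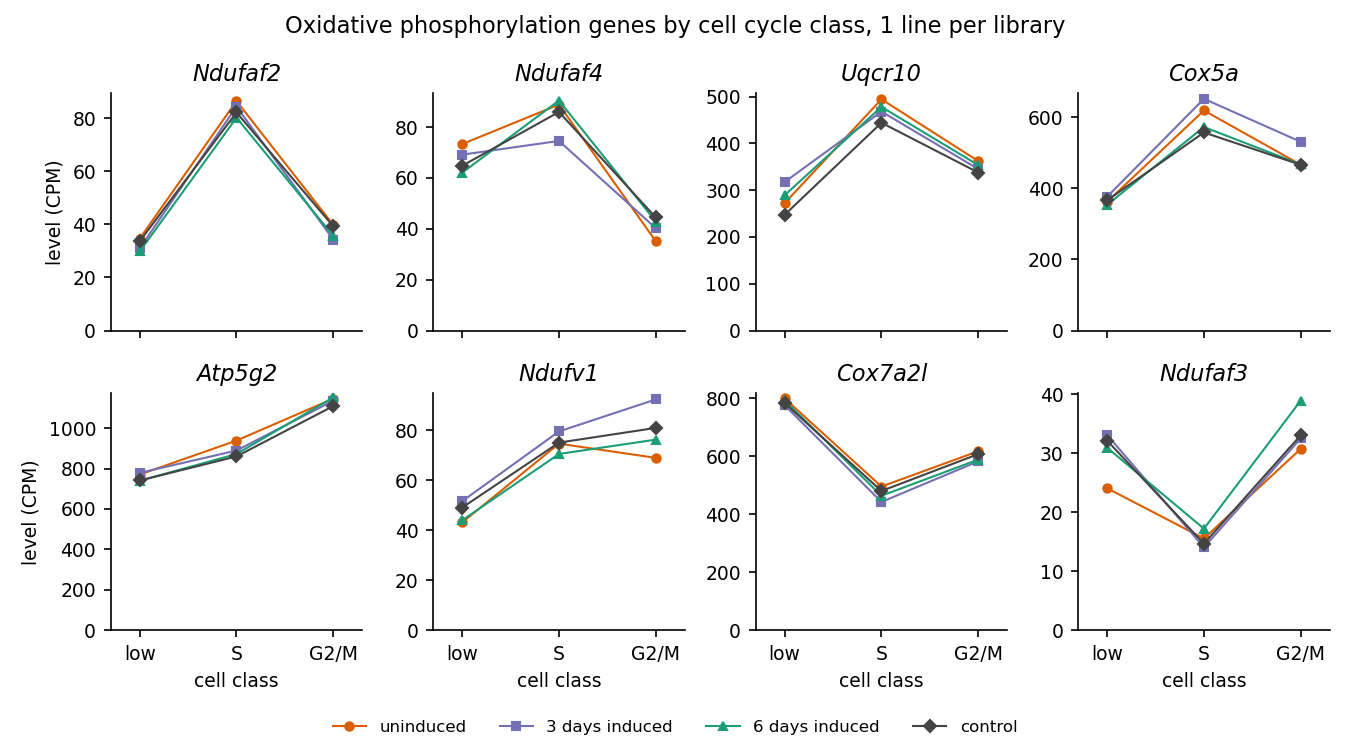
CPM of 8 genes in low-cycling, S-high and G2/M-high cells, with 1 line per library. Ndufaf2 peaks in S-high cells, Ndufaf3 dips there, Ndufaf4 drops in G2/M-high cells, and Atp5g2 is highest in G2/M-high cells. The 4 libraries run close together in each panel.

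Both comparisons share the low-cycling cells, so that their calls are not independent. Set side by side, 38 members rose in both, 22 rose in S-high cells and were not called in G2/M-high cells, and 8 were called higher in G2/M-high cells alone. Cox7a2l, Ndufa6 and Uqcrh fell in both, and Ndufa7 in G2/M-high cells alone. Atp5e, Cox7b, Ndufa8, Ndufaf4 and Uqcrb rose in S-high and fell in G2/M-high cells, and Uqcrc2, a core protein of complex III, did the reverse. Neither comparison called 7 members, Cox4i1, Ndufa1, Ndufs4, Ndufaf1, Ndufaf5, Ndufaf7 and Atp5sl.

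The classes were therefore also set directly against each other, a comparison chosen after the data had been seen. In G2/M-high against S-high cells 17 members were higher and 47 lower, where 21.8% of all genes were higher and 24.5% lower, with a median log2 fold change of -0.14 for members and 0.01 for all genes. Without the 6-day library, 11 were higher, with 18.6% of all genes. The lower ones included 19 of 36 subunits of complex I, 10 of 15 of complex V and 8 of 11 of complex IV. None of complex IV's widely expressed subunits was higher.

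Ndufaf2 had 39.8, 34.3, 35.6 and 39.2 CPM in G2/M-high cells against the 80.1 to 86.4 CPM of S-high cells (-1.2, SE 0.07, adjusted p = 5.21e-17), and Ndufaf4 had a fold change of -1.13 (adjusted p = 1.008e-14). Ndufaf3 had 30.7, 32.5, 38.9 and 33.0 CPM in G2/M-high cells, above its 14.1 to 17.2 CPM in S-high cells (1.06, adjusted p = 3.057e-10). The 3 assembly factors did not overlap between the classes, and the p-values are from edgeR's quasi-likelihood test. Ndufab1, the mitochondrial acyl carrier protein, fell by 0.58, Uqcr10 by 0.49 and Atp5g1 by 0.61 on the log2 scale. Ndufs1 was 0.46 and Cox6b2 0.43 higher. Cox7a1 was 1.33 higher on levels of 0 to 3.01 CPM, and its call was lost with DESeq2 (1.43), without the uninduced library (0.78) and without the 6-day library (1.28).

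The 3 genes for the ring subunit c of the ATP synthase, which all give the same mature protein, had different profiles. Atp5g1 had 367, 405, 364 and 343 CPM in low-cycling cells, 628, 614, 588.5 and 527 CPM in S-high cells, and 398, 400.3, 398 and 398 CPM in G2/M-high cells. It rose by 0.64 in S-high cells and did not pass in G2/M-high cells (0.03, adjusted p = 0.6344 in edgeR's quasi-likelihood test). Atp5g2 rose by 0.20 in S-high and by 0.50 in G2/M-high cells, and was 0.30 higher in G2/M-high than in S-high cells. Atp5g3 rose by 0.68 and 0.28, and stood at -0.40 in G2/M-high against S-high cells. Transcript ends of Atp5g1 and Atp5g2 resemble other genes. Of the 31-base words in the last 500 bases, 52.1% for Atp5g1 and 49.6% for Atp5g2 were found anywhere in transcripts of other genes. Reads may therefore be shared with near copies.

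Genes around the family moved with it on some lists and not on others. Of the 13 mitochondrially encoded subunits 4 rose and 5 fell in S-high cells, with mt-Nd1 at 0.46 and mt-Co1 at -0.44, and 1 rose and 8 fell in G2/M-high cells, with mt-Nd1 at 0.22, mt-Co1 at -0.45 and mt-Co3 at -0.33. Their summed share in S-high cells was 0.920-fold to 0.951-fold that of low-cycling cells and in G2/M-high cells 0.897-fold to 0.927-fold. Of 35 further genes of the chain and its assembly outside the name rule, 17 rose and 4 fell in S-high cells, led by Cycs, which codes for cytochrome c (1.11), and Higd1a (0.75), with Surf1 at -0.78 and Uqcc3 at -0.55. In G2/M-high cells 5 rose, such as Cox11 (0.47) and Cyc1 (0.41), and 11 fell, such as Ttc19 (-0.53) and Sdhaf3 (-0.53).

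Of 18 citric acid cycle genes, 11 rose and 2 fell in S-high cells, with Idh3a at 1.03, Fh1 at 0.87, Pdha1 at -0.32 and Idh3b at -0.16, and 12 rose and 2 fell in G2/M-high cells, with Fh1 at 0.72, Idh3g at 0.59, Pdha1 at -0.22 and Suclg1 at -0.15. Against low-cycling cells their summed share was 1.21-fold to 1.31-fold in S-high and 1.17-fold to 1.29-fold in G2/M-high cells. The members' summed share was 1.21-fold to 1.24-fold and 1.14-fold to 1.17-fold. Glycolysis genes were split in S-high cells, with 10 of 22 higher, such as Slc16a1 (1.2) and Ldha (1.12), and 5 lower, such as Slc2a3 (-0.74) and Aldoa (-0.58). In G2/M-high cells 3 of the 22 rose, among them Gapdh (0.34) and Eno1 (0.22), and 8 fell, among them Aldoc (-2.65) and Aldoa (-1.64). The summed share of glycolysis genes was 1.40-fold to 1.51-fold in S-high and 1.01-fold to 1.06-fold in G2/M-high cells. Of 16 regulators of mitochondrial biogenesis, 3 rose and 1 fell in S-high cells, with the mitochondrial transcription factors Tfb1m at 0.72 and Tfam at 0.63, and Nfe2l2 at -0.22. In G2/M-high cells 4 rose and 4 fell, with Nrf1 at 1.13, Gabpb1 at 0.55, Esrra at -0.91 and Myc at -0.65. Ribosomal protein genes fell in both, 73 of 82 in S-high and 78 of 82 in G2/M-high cells.

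The stretch of 250 bases before the start was read from RefSeq promoters on GRCm38.p6 for the 73 members that matched by symbol, and searched on both strands for short cores of factors known to act on such genes. The core TGCGCA of NRF1, a regulator of respiratory chain genes, was present in 14 of the 73 (19.2%), against 6.66% of all 27025 promoters, and the core CCGGAAG of the ETS family, which includes GABP, in 12 (16.4%), against 7.05%. The core AAGATGG of YY1 was in none of the 73, against 4.53%, and the core GTGGGAA bound by RBPJ in 3 (4.11%), Atp5k, Cox7c and Ndufaf5, against 5.41%. The letters of these 4 cores do not contain one another. A match describes the sequence and is not a bound site. Bases at and after the start were not searched, so that a core absent from the window may stand there. Ndufaf4 and Ndufa6 hold the NRF1 core and fell in G2/M-high cells, Cox6a1, the partner of Cox6a2, holds the NRF1 and the ETS core, and Ndufaf2, the member with the largest change in S-high cells, holds none of the 4. Their windows are given 5′ to 3′ on the gene's strand with the matches in capitals, an ETS match on the opposite strand reading CTTCCGG. They lie at chr4:24897833-24898082 (plus strand), chr15:82354292-82354541 (minus strand), chr5:115348959-115349208 (minus strand) and chr13:108158626-108158875 (minus strand), in the order listed.
Ndufaf4: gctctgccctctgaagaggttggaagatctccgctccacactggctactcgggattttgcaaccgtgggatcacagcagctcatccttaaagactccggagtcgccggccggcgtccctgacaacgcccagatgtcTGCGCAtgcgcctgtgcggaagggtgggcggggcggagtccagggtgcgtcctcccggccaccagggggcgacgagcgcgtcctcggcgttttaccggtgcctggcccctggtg
Ndufa6: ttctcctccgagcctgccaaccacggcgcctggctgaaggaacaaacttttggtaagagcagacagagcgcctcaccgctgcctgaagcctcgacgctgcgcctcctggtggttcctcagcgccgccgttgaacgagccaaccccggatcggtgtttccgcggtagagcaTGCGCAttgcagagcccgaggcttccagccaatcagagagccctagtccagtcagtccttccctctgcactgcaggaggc
Cox6a1: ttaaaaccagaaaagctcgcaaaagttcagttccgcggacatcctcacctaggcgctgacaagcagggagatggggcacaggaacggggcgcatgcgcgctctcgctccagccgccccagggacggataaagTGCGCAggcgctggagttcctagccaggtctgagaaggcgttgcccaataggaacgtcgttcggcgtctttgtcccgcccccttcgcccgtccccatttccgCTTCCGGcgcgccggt
Ndufaf2: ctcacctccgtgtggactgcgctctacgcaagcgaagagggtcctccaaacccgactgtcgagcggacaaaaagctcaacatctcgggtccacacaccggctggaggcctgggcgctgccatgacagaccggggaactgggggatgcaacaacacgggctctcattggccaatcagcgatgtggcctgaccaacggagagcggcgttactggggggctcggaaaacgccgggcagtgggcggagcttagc

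Of the 14 members with the NRF1 core, 13 rose and 1 fell in S-high cells, with a median log2 fold change of 0.36, and of the 57 tested without it 42 rose and 5 fell, with a median of 0.28. In G2/M-high cells 9 of the 14 rose and 2 fell, with a median of 0.21, and 28 of the 57 rose and 6 fell, with a median of 0.14. With or without the core, most members thus rose in S-high cells. No test was made of the difference between these lists.

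Progenitors at the stem-like and the lymphoid end of the population were compared next, through Hlf, a transcription factor gene of stem cells, and Il7r, which codes for the receptor through which lymphoid progenitors receive interleukin 7. After thinning, Hlf cells (a UMI of Hlf and none of Il7r) numbered 424, 185, 283 and 498, and Il7r cells (the reverse) 143, 50, 178 and 185 in the uninduced, 3-day, 6-day and control libraries. Of the 86 members tested, 1 was higher and 17 were lower in Hlf cells, where 7.02% of all 9719 genes were higher and 8.14% lower, and 68 did not pass the threshold. Without the control library 9 were lower, with 4.62% of all genes. The median log2 fold change was -0.08 for members and -0.0046 for all genes. Members' share of UMIs in Hlf cells was 0.964-fold, 0.937-fold, 0.975-fold and 0.953-fold that in Il7r cells.

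The cycle moved with this division. In Hlf cells 19.8%, 18.9%, 18.4% and 22.3% were G2/M-high, against 28.7%, 26%, 31.5% and 34.1% of Il7r cells, and 44 of 54 G2 and M genes were lower in Hlf cells. Hlf cells also held fewer UMIs, with medians of 6936, 7903, 7362 and 7650.5 per cell against 9011, 9743, 10123.5 and 10909 in Il7r cells. Among low-cycling cells alone, Cox6a2 was the 1 member lower in Hlf cells, at -4.0 on the log2 scale, and 2 were higher, with fewer cells and 6917 genes tested. Of all those genes 2.01% were lower and 1.91% higher. The members' median there was -0.08, as among all cells to 2 decimals. Among all cells with classes set on unthinned UMIs, 43 members were lower. The share of all genes lower under that setting is not given here, so that the count cannot be set against it.

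Cox6a2 set Hlf and Il7r cells apart like no other member, with 18.5, 15.4, 31.5 and 16.5 CPM in Hlf cells against 160.5, 187, 180.3 and 179 CPM in Il7r cells. The ranges were far apart in all 4 libraries (log2 fold change -3.12, SE 0.11, adjusted p = 1.419e-30 in edgeR's quasi-likelihood test). Cox6a1, which fills the same place in complex IV, was at -0.05 with an adjusted p of 0.5336, and Cox6b2 at 0.11 with an adjusted p of 0.6185.

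The other lower members came from all 5 complexes. Sdhb had 190.4, 198, 176 and 184 CPM in Hlf cells against 218, 250.2, 210.3 and 238 CPM in Il7r cells (-0.31, adjusted p = 2.318e-05), and Sdha 79.6, 94.6, 90.7 and 88.3 CPM against 102, 117, 103 and 98.8 CPM (-0.27, adjusted p = 0.0129). Neither gene overlapped between the classes, and Sdhd was lower too, while Sdhc stood at 0.19 with an adjusted p of 0.2005. Uqcrc2 had 104, 121, 94.6 and 108 CPM against 138, 127, 128 and 136 CPM (-0.37, adjusted p = 6.594e-05). Atp5b had 538, 656, 499 and 549 CPM against 597, 808, 611 and 699.7 CPM (-0.29, adjusted p = 2.597e-08), lower in 4 of 4 libraries but with overlap between them. Atp5a1, Atp5c1, Atp5f1, Atp5g1 and Atp5g2 were lower as well, which makes 6 of 15 in complex V, 3 of 4 in complex II, 3 of 11 in complex IV, 3 of 36 in complex I and 1 of 8 in complex III. The adjusted p-values are from edgeR's quasi-likelihood test, and among low-cycling cells Sdhb (-0.29), Uqcrc2 (-0.19), Atp5b (-0.17) and Sdha (-0.15) were no longer called.

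Ndufa4 was the 1 member higher in Hlf cells, with 1175, 1151, 1035 and 973 CPM against 923, 985.5, 880.5 and 862.5 CPM in Il7r cells. It was higher in 4 of 4 libraries, with overlap between them (0.22, SE 0.03, adjusted p = 1.812e-07 in edgeR's quasi-likelihood test). Outside the family, 4 of 18 citric acid cycle genes were lower and none higher, with Fh1 at -0.63, and 5 of 21 glycolysis genes were higher and 2 lower, with Hk3 at 2.81, Ldhb at 0.93 and Ldha at -0.23. Of the mitochondrially encoded genes 1 was higher and 2 lower.

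**Figure D5:**
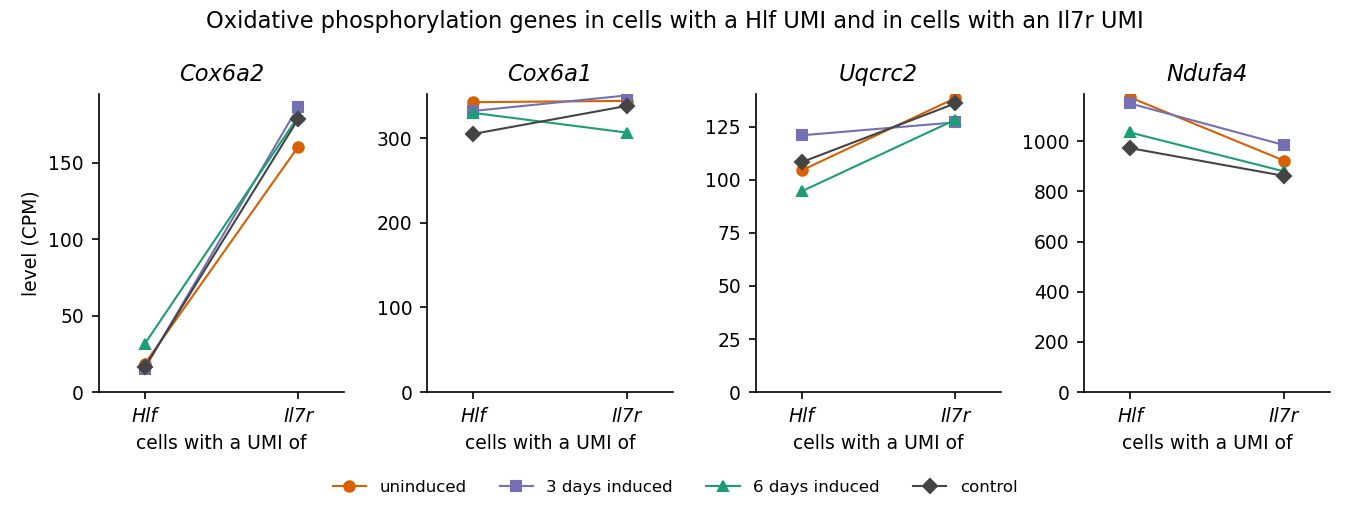
CPM of Cox6a2, Cox6a1, Uqcrc2 and Ndufa4 in Hlf cells and in Il7r cells, with 1 line per library. Cox6a2 lies at 15.4 to 31.5 CPM in Hlf cells and 160.5 to 187 CPM in Il7r cells, while the lines of Cox6a1 are nearly level.

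Cox6a2 was examined further because it moved apart from the other members. A Cox6a2 UMI was present after thinning in 15.4% of uninduced (95% exact binomial interval 13.9 to 17.0), 17.6% of 3-day (15.3 to 19.9), 20.6% of 6-day (18.7 to 22.5) and 16.9% of control cells (15.4 to 18.4), and before thinning in 18.3%, 22.8%, 26.2% and 22.8%. It was found in 42.0%, 48%, 41.6% and 45.4% of Il7r cells and in 5.43%, 3.24%, 9.19% and 4.22% of Hlf cells, the last to be read beside 3 of 53 cells of other types (5.66%, 1.18 to 15.7), whose median was 7545 UMIs against 8070 to 8676.5 in the libraries. The 10 cells richest in it held 7.82% to 12.3% of its UMIs. The gene lies on chromosome 7 (GRCm38, 128205435 to 128206387, minus strand), with Itgad on the opposite strand at its end. How the counting treated strand is not given in the sources used here.

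Cells with a Cox6a2 UMI (322, 191, 361 and 395) were then set against the rest (1771, 897, 1394 and 1947), where Cox6a2 itself is no result. Of the 88 members tested, Cox6a2 included, 4 were higher and 1 lower, beside 5.06% and 3.66% of all 10617 genes. The median was 0.03 for members and 0.01 for all genes. Cox5a (0.12, adjusted p = 0.004617), Sdhb (0.12, adjusted p = 0.0306) and Atp5b (0.09, adjusted p = 0.04275) were slightly higher and Ndufa4 lower (-0.14, adjusted p = 4.932e-05, edgeR's quasi-likelihood test), each with overlap between the classes. The call on Atp5b was lost under 8 of 8 alternatives, that on Sdhb under 7 of 8 and that on Cox5a under 2 of 8, and without the library as block that on Ndufa4 was lost too. Cox6a1 stood at 0.00 with an adjusted p of 0.9781, and members' share of UMIs was 1.00-fold, 1.03-fold, 0.995-fold and 1.02-fold.

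Genes of several other lists differed with Cox6a2. Of 13 lymphoid priming genes 11 rose and none fell in Cox6a2 cells, with Ly6d at 2.11, the recombinase gene Rag1 at 1.77, Il7r at 1.70 and Dntt, which adds bases at antigen receptor joints, at 0.99. Il7r had 46.4, 39.0, 72.5 and 67.2 CPM in Cox6a2 cells against 15.3, 11.2, 24.4 and 19.8 CPM in the other cells. Of 15 plasmacytoid dendritic cell genes 9 rose and none fell, with 4 genes (Dntt, Ly6d, Ccr9 and Cd7) on both lists, while Siglech, a defining gene of those cells, stayed at or below 1.09 CPM in all libraries. Of 15 stem cell genes 12 fell and none rose, with Procr at -3.01 and Hlf at -1.70. Of 15 neutrophil genes 11 fell and none rose. Of 82 ribosomal protein genes 65 rose, by a median of 0.05 over the list, and of 47 S phase genes 16 rose, and none fell on either list.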

How the data were processed

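Lymphoid-primed multipotent progenitors of 4 groups, with 1 library each, were measured with 10X Genomics single-cell RNA sequencing. The authors deposited UMI counts per gene for all barcodes and tables of log2 values for the cells they kept. Per the submitters' processing notes the build was mm10 and Seurat was used, while aligner, counting tool and cell filters are not given in the sources used here. Those deposited log2 tables served only to choose the cells, and all values come from the deposited counts.

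UMIs were summed per library and scaled to CPM. Ratios between libraries used CPM + 1 for genes at 10 CPM or more, with exact Poisson or conditional intervals (95%), and 1.2-fold as the bound for a call, with no test. Cells were thinned to 4700 UMIs to set classes, which left out 676 uninduced, 204 3-day, 374 6-day and 351 control cells, and the sums per library and class used all UMIs of the classed cells. Doublets were not called. The sums were fitted with edgeR 4.0.16 (R 4.3.3; quasi-likelihood F test, TMM scaling, filterByExpr, library as block, 6 residual degrees of freedom, or 3 for Cox6a2 cells), with Benjamini-Hochberg adjustment over all genes and a threshold of 0.05. The block pairs the classes that come from the same library. DESeq2 1.42.0, other scalings, filters and bounds, leaving out each library, and cells without other types were tried as alternatives, and scripts were tested on simulated data. The comparison of G2/M-high with S-high cells was chosen after the data had been seen. Python 3.11.15 with pandas 2.3.3 and scipy 1.17.1 was used. Shares have exact binomial intervals, and intervals and limits for a count of 0 cover counting error only. Depth was 20952799 UMIs in the uninduced library, 10647894 at 3 days, 17455692 at 6 days and 23504158 in the control library.

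Members and gene lists were chosen with earlier results of these data known. Named genes are the 5 most changed each way per comparison (among those called, for classes), the 2 most abundant of each complex, tissue isoforms with their partners, and up to 2 of each other list each way. Others were named after their values were seen, and some genes that the rule names are not reported here.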

Additional observations from a re-analysis of the deposited data

Results flagged for a closer look

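Members also appeared in barcodes that were not called as cells. Barcodes of 10 to 100 UMIs drew 2.51% of their UMIs from members in the uninduced library, 2.58% at 3 days, 2.53% at 6 days and 2.61% in the control library, close to the shares inside cells. These barcodes enter none of the comparisons.

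In 3 members the libraries differed in direction under the same comparison, and these differences were not tested. Atp5o, a stalk subunit of the ATP synthase, was 1.11-fold in Cox6a2 cells over other cells at 3 days (95% counting interval 1.01 to 1.21) and 0.889-fold at 6 days (0.827 to 0.955). Atp5e was 0.929-fold in G2/M-high over low-cycling cells at 3 days (0.87 to 0.993) and 1.06-fold at 6 days (1.01 to 1.11). Uqcrc1, a core protein of complex III, was 1.23-fold in Hlf over Il7r cells in the uninduced library (1.01 to 1.5) and 0.639-fold at 3 days (0.501 to 0.819).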

How the results depend on the processing

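No paired analysis was possible between libraries because each group is 1 library. Between classes, the library was the replicate block. Without that block, 11 members were higher in G2/M-high over S-high cells (15.9% of all genes). In G2/M-high over low-cycling cells 32 were higher (17.8%) and 4 lower (17.9%). In Hlf over Il7r cells 0 were higher (4.34%) and 4 lower (4.48%). Of the plasmacytoid genes 4 were then higher in Cox6a2 cells. Leaving out 1 library gave 59 to 65 higher and 5 to 7 lower in S-high over low-cycling cells (22.2% to 26.4% and 21% to 24.2% of all genes). G2/M-high over low-cycling cells had 41 to 47 and 7 to 9 (18.3% to 22.3% and 19.6% to 22.4%). G2/M-high over S-high cells had 11 to 16 and 39 to 48 (17.6% to 19.6% and 20% to 23.3%). Hlf over Il7r cells had 1 to 2 and 9 to 17. All genes there gave 6.15% and 6.87% without the uninduced library, and 6.94% and 7.25% without the 3-day library. Of the plasmacytoid genes 8 were higher in Cox6a2 cells. Without the control library 9 members were lower and 2 higher in Hlf cells (4.62% and 4.51% of all genes). Without the 6-day library 2 were higher there. A bound at the top 10% of cells gave 29 higher and 15 lower in G2/M-high cells, with 19.7% and 21.6% of all genes. Scaling by total alone gave 67 and 5, with 29.7% and 17.9%. In Hlf over Il7r cells, low-cycling cells gave 2 higher and 1 lower, with 1.91% and 2.01% of all genes. Unthinned classes gave 3 and 43, and thinned counts 10 lower, for which the shares of all genes are not given here.

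Between libraries, the members' median at uninduced over control became 0.073 on thinned counts and 0.13 with TMM or DESeq2 scaling. At 6 days over uninduced it became -0.054 on thinned counts, 0.00845 without mitochondrial and ribosomal genes in the total, 0.0012 with TMM and -0.000279 with DESeq2. At 6 days over control it became 0.067, 0.12 and 0.12 under the last 3. Cox6a2 at uninduced over control reversed to 0.069 in low-cycling cells. Of single genes' class results under alternatives, 396 kept direction and call, 39 lost the call and none reversed. With 1 library per group, depth sets the intervals but not the spread between mice.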
